A study of Mus musculus with 24 samples.

Results

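The genes described here are 8 genes of the myelin sheath, Mbp, Mog, Mag, Mobp, Cnp, Ermn, Opalin and Pmp22, measured in 4 mouse tissues. They were taken by name, and all 14 array probes whose RefSeq transcript accession belongs to one of them were used, out of 55681 probes for 21368 named genes. The 24 samples are 1-colour expression arrays of total RNA from liver, brain, heart and muscle of 6 male mice, 3 wild type (WT) and 3 homozygous for the Rap1 I312R knock-in allele (labelled MUT and called Rap1 KI/KI here), which was made with CRISPR/Cas9 and backcrossed to C57BL6 (C57BL/6N in the study's methods). The amino acid change lies where RAP1, a telomere protein, contacts TRF2, and the knock-in leaves RAP1 in the cell but off the telomere. The study also reported less RAP1 protein in Rap1 KI/KI embryonic fibroblasts and brain, with a larger part of it in the cytosol. The array comparison asks how transcript levels differ between the genotypes in each tissue. WT1 and KI1 were 5 months old, the other 4 mice were 2 months old, and each mouse gave 1 array per tissue. The knock-in is present in all cells of the mouse, so no cell type is singled out by the model.

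Myelin is a membrane that glial cells wrap around axons in many compacted layers so that nerve impulses travel fast. In the brain and spinal cord it is made by oligodendrocytes, and in peripheral nerves, including the fine nerves inside heart and skeletal muscle, by Schwann cells. The pair of cell types share some myelin proteins, such as MBP and MAG, while MOG, MOBP and OPALIN are known from oligodendrocytes and PMP22 is best known from Schwann cells and is also made by many non-neural cells.

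Levels are given as log2 of the processed signal relative to the 75th percentile of the same array, which is set to 0, and levels of different probes were ranked only to choose the probe that stands for a gene and the genes named. The 75th percentile signal ran from 470.7 to 1389 over the arrays, with the lowest range, 470.7 to 529.2, in muscle, and between 56.5% and 72.7% of probes were well above background. Tissue labels matched their marker genes: albumin (Alb) was between 8.74 and 9.85 in the liver and at most 2.95 elsewhere, and Myh6, the cardiac myosin, was between 8.51 and 9.35 in the heart and at most 2.00 elsewhere. The targeted gene Terf2ip, the gene of RAP1, had a signal well above background in every sample and differed by 0.12 (SE 0.27), -0.02 (SE 0.24), -0.41 (SE 0.23) and -0.28 (SE 0.21) between Rap1 KI/KI and WT in liver, brain, heart and muscle (limma, adjusted p between 0.663 and 1), which does not check the labels because the allele changes the protein. The muscle array of KI3 stood apart: 3.05% of probes were at least 3 log2 units above the median of the other muscles, against 0.331% to 0.652% on the others, and values without it are given beside the myelin results that it moved.

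5 of the promoters are shown, a promoter each of the 4 central genes with an ACAAAG match and the first of Pmp22. Mog and Ermn, also central genes, had no such match and are not shown, and another Pmp22 start held a CTGGNAC match. The set shown follows the matches and is no contrast between the central genes and Pmp22. The RefSeq table of build GRCm38.p6 held 12 start sites for 7 of the 8 genes and none for Mbp, and the 250 bases before each start were searched on both strands for ACAAAG, the core of the SOX factor motif, and for CTGGNAC, the core of the motif of MYRF, the transcription factor of oligodendrocyte maturation. Capitals mark the matches, and each sequence is on the strand of its gene, 5′ to 3′.
Mobp, chr9:120149492-120149741, plus strand: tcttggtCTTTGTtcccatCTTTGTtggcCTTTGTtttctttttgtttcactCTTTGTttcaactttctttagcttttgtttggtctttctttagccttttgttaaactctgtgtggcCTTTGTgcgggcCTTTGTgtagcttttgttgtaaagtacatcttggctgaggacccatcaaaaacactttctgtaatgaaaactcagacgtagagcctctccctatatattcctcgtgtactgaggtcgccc
Opalin, chr19:41077114-41077363, minus strand: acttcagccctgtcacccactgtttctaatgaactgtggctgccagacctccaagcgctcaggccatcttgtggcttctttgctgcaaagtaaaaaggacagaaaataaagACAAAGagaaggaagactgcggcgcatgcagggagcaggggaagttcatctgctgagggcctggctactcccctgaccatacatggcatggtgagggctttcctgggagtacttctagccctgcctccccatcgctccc
Mag, chr7:30914923-30915172, minus strand: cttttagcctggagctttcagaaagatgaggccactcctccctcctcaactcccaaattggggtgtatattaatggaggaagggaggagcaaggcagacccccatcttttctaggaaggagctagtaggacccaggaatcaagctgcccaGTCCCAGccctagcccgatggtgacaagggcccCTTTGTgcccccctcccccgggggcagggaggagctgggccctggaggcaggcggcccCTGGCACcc
Cnp, chr11:100574689-100574938, plus strand: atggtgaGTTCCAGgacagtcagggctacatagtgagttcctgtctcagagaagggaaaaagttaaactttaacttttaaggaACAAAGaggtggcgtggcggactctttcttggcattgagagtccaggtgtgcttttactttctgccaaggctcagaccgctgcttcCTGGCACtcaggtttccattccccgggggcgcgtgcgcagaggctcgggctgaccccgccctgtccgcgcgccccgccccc
Pmp22, chr11:63128732-63128981, plus strand: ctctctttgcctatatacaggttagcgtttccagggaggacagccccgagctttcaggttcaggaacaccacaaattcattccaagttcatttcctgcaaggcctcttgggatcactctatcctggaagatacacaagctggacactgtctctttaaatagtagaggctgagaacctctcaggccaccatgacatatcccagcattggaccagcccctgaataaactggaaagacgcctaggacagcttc

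The Mobp promoter held ACAAAG 6 times, each on the opposite strand and so read above as CTTTGT, between 243 and 120 bases before the start. It was the only 1 of 32851 promoters in the table with at least 6 matches, a cut that was set at the Mobp count itself. Opalin, Mag and Cnp had a single match in the promoters shown, and Mog, Pmp22 and Ermn had none at any start site. ACAAAG was found in 5 of the 12 promoters, a pair of which are overlapping Mag windows that hold the same site, against 16.5% of all promoters in the table. CTGGNAC was found in 5 of the 12 as well, in Cnp, Mog, Pmp22 and the same pair of Mag windows, against 16.1% of all. The general E-box letters CANNTG were in 5 of 12 against 66.2% of all, and TATAAA and the second SOX form AACAAT were in none of the 12, against 12.4% and 9.42%. A match is a run of letters only, and no binding was measured in these samples.

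The central myelin genes were highest in the brain. At an adjusted p under 0.05 and a difference of at least 2-fold (limma, fit of all 24 arrays), 11 of the 14 myelin probes were higher in the brain than in each of the other 3 tissues, where 14.0% of all 42463 tested probes were. With an 8-fold minimum the count was 8 of 14, against 5.74% of all probes. Against the liver alone 12 of 14 were higher (28.2% of all probes) and 1 was lower (35.2%), against the heart 11 were higher (21.4%) and 3 lower (27.5%), and against muscle 11 were higher (22.5%) and 2 lower (29.5%). All 14 probes passed the filter on dim probes, 3 of them (Opalin and a pair of Mobp probes) only through the brain, so that these 3 had to be higher there. These are whole-tissue RNA measurements, in which fewer cells of a type and less RNA per cell cannot be told apart. Heart and muscle RNA was extracted with a different kit from brain and liver RNA, so that tissue and kit cannot be told apart in those contrasts. All livers were on slide 1, all muscles on slide 3, the brains on slides 1 and 2 and the hearts on slides 2 and 3. Muscle shared no slide with brain or liver, and the heart none with the liver, so these contrasts lie across slides.

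**Figure D1:**
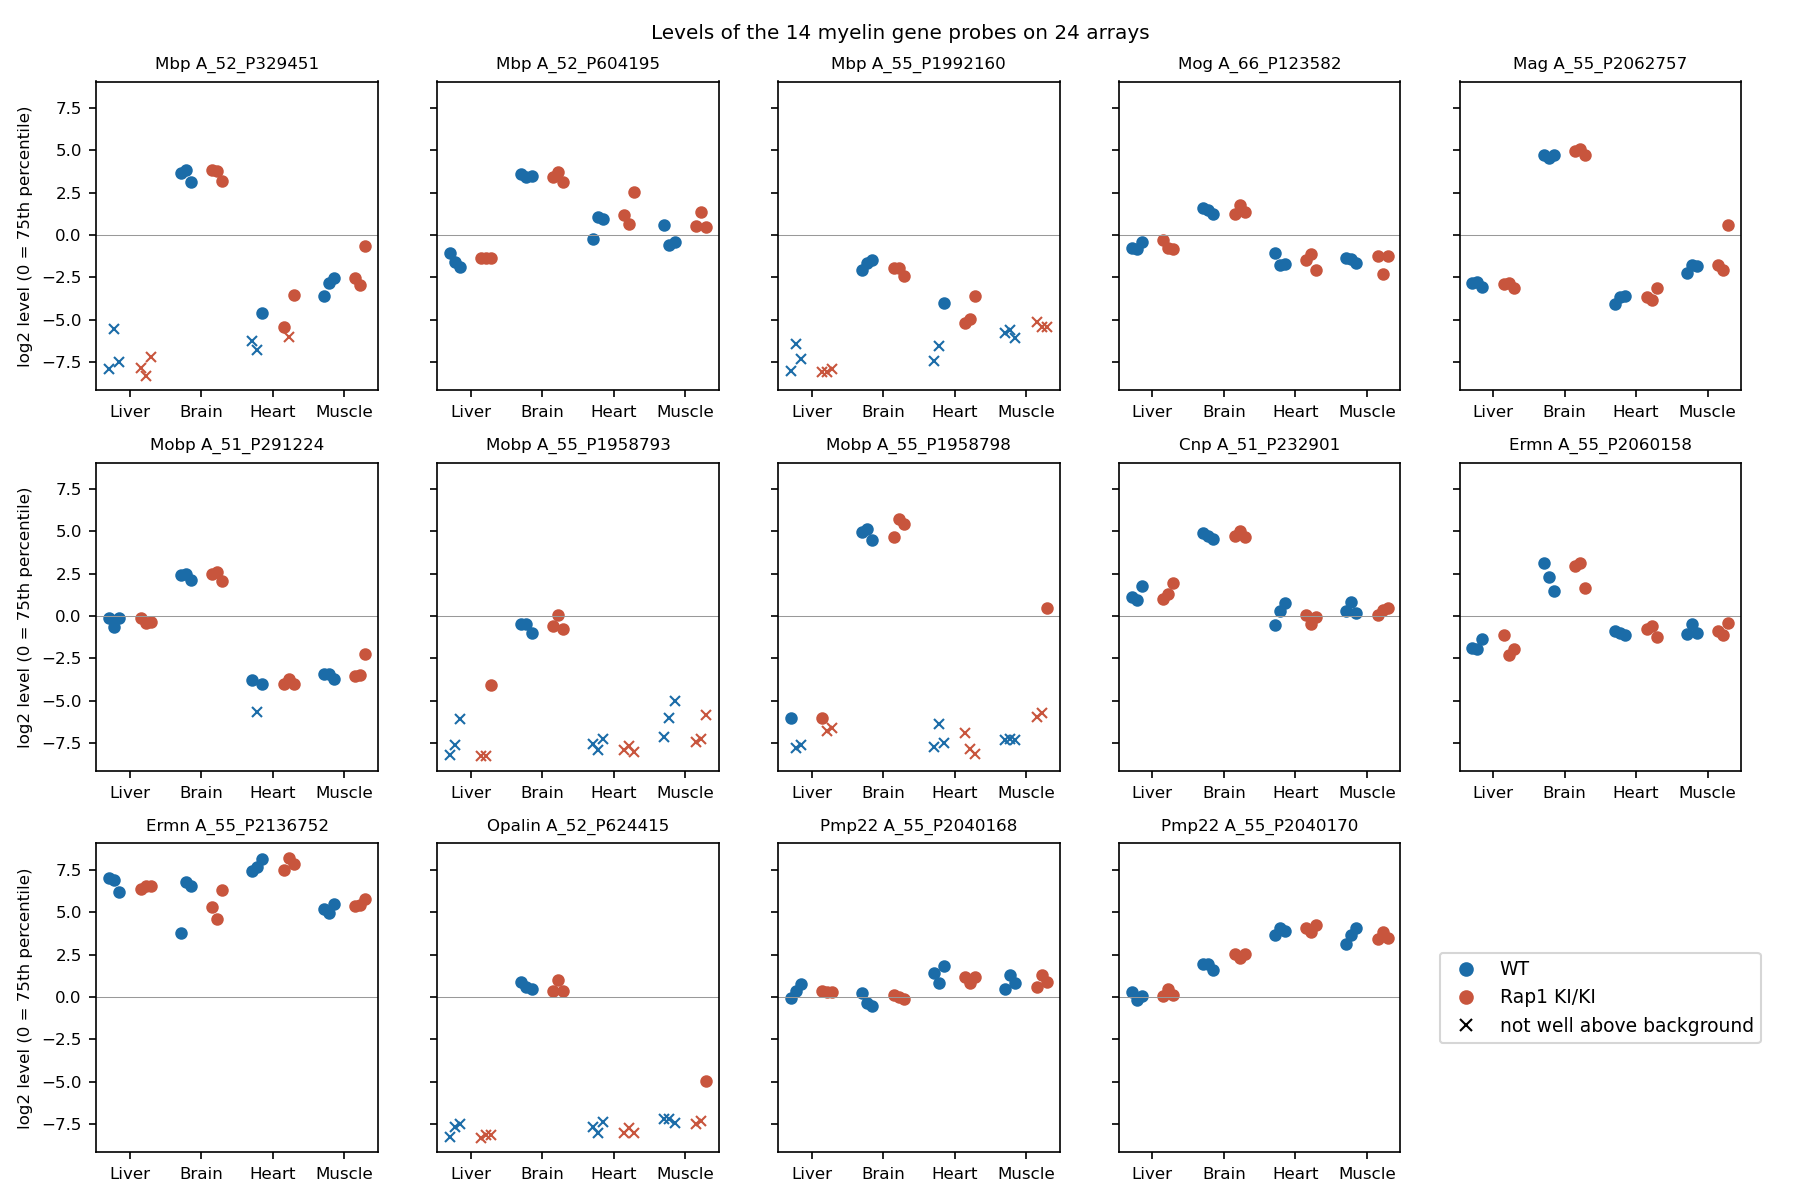
Each panel plots the log2 level of 1 probe (0 is the 75th percentile of the array) on the 6 arrays of each tissue, with WT and Rap1 KI/KI mice in different colours and crosses for spots not well above background. Most panels peak in the brain, Pmp22 peaks in heart and muscle, and the muscle of KI3 sits above the other muscles for Mag (0.60) and for Mobp A_55_P1958798 (0.49).

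Mag encodes the myelin-associated glycoprotein, the adhesion molecule of the innermost myelin layer that faces the axon. Its level in the brain was 4.70, 4.56 and 4.72 in WT1, WT2 and WT3 and 4.95, 5.10 and 4.73 in KI1, KI2 and KI3. Elsewhere the lowest, median and highest level was -3.12, -2.88 and -2.80 in the liver, -4.07, -3.66 and -3.12 in the heart and -2.24, -1.82 and 0.60 in muscle. Every brain array was above every array of the other tissues. The brain exceeded the liver by 7.73 log2 units (SE 0.31, limma adjusted p = 1.94e-14), the heart by 8.45 and muscle by 6.32. Outside the brain Mag was higher in muscle than in heart by 2.13 (SE 0.31, limma adjusted p = 1.4e-05), and by 1.71 (limma adjusted p = 5.54e-08) without the muscle of KI3. The other muscles lay between -2.24 and -1.78 and above all 6 hearts.

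Cnp encodes the nucleotide phosphodiesterase CNPase, which keeps cytoplasmic channels open within the sheath. All 24 arrays had it well above background. Its brain levels were 4.87, 4.73 and 4.52 in the WT mice and 4.72, 5.03 and 4.68 in the Rap1 KI/KI mice. The highest level outside the brain was 1.93, in the liver of KI3. The brain was higher than liver, heart and muscle by 3.42, 4.76 and 4.41 log2 units (SE 0.22 each, limma adjusted p at most 2.19e-11). Among the other tissues Cnp was higher in the liver than in the heart by 1.34 (SE 0.22, adjusted p = 1.95e-05 by limma), while muscle and heart differed by 0.35 (95% interval -0.11 to 0.80).

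Mog encodes a glycoprotein on the outermost surface of central myelin and is a classical target in experimental autoimmune encephalomyelitis. Its brain levels were 1.57, 1.45 and 1.22 in WT and 1.21, 1.78 and 1.34 in Rap1 KI/KI mice. No array of another tissue reached them, the highest being -0.30 in the liver of KI1. The differences, 2.09 to the liver, 2.96 to the heart and 2.97 to muscle (SE 0.21 each), were the smallest among the central genes with a single probe. The Mog probe was nevertheless well above background on every liver, heart and muscle array.

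Opalin encodes a transmembrane protein of the oligodendrocyte paranodal loops. It was well above background on 6 of 6 brain arrays, at 0.86, 0.58 and 0.46 in WT and 0.33, 0.98 and 0.37 in Rap1 KI/KI mice. It was not well above background on any liver or heart array and on 1 muscle array, that of KI3. The brain was at least 88.4-fold above the liver and at least 76.2-fold above the heart. These bounds set the mean brain level against the lowest signal, per array of the dim tissue, of any probe that was well above background. Opalin passed the filter on dim probes only through the brain, so the outcome of a test against these tissues was fixed by the filter.

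Mbp encodes myelin basic protein, which holds the cytoplasmic faces of the membrane together. The gene also makes golli transcripts from an upstream start, known from neurons, immune cells and other tissues, and its 3 probes did not behave alike. Probe A_52_P329451 (designed on NM_010777) was at 3.68, 3.81 and 3.10 in the WT brains and 3.83, 3.80 and 3.20 in the Rap1 KI/KI brains. It was not well above background on any liver array, and the brain was at least 694-fold above the liver (limma adjusted p = 1.38e-13 for the measured difference). In the heart it was above background on 3 of 6 arrays and in muscle on all 6.

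Probe A_55_P1992160, designed on the same transcript, had a brain range of -2.45 to -1.51 and was above background on no liver and no muscle array. Its brain mean was at least 15.3-fold above the liver and at least 9.43-fold above muscle. Probe A_52_P604195 (NM_001025245) gave a signal above background in every sample. Its brain range was 3.11 to 3.69, its liver range -1.88 to -1.08, its heart range -0.22 to 2.54 and its muscle range -0.57 to 1.33. Its brain excess was 4.89 over the liver, 2.44 over the heart and 3.14 over muscle (SE 0.30 each, limma adjusted p at most 5.48e-07). No brain array overlapped another tissue with any of the 3 probes. The probes therefore agree on the tissue order of brain first and give very different sizes for it.

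Mobp encodes a small basic protein of the compact central sheath and also had 3 probes. Probe A_55_P1958798 (NM_008614) was at 4.97, 5.11 and 4.47 in the WT brains and at 4.69, 5.72 and 5.42 in the Rap1 KI/KI brains. It was above background on no heart array, on 2 liver arrays and on 1 muscle array, again that of KI3. The brain was at least 1690-fold above the heart. This probe passed the filter on dim probes only through the brain, so the outcome of a test against the heart was fixed by the filter. Probe A_55_P1958793 (NM_001039365) ran from -0.99 to 0.04 in the brain, was above background on 1 liver array and on no heart or muscle array, and gave bounds of at least 34.7-fold over the heart and at least 24.7-fold over muscle. Probe A_51_P291224, on the same transcript, ran from 2.08 to 2.60 in the brain and from -0.64 to -0.13 in the liver, where all 6 arrays were above background. With that probe the liver exceeded the heart by 3.92 (SE 0.27) and muscle by 3.00 (SE 0.27). The other Mobp probes were above background on no heart array and cannot give that order. They did not share the liver signal either. Brain minus liver was 6.55 with A_55_P1958793 and 11.9 with A_55_P1958798, against 2.67 with A_51_P291224. Mobp in the liver at a level over heart and muscle thus rests on A_51_P291224 alone.

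**Figure D2:**
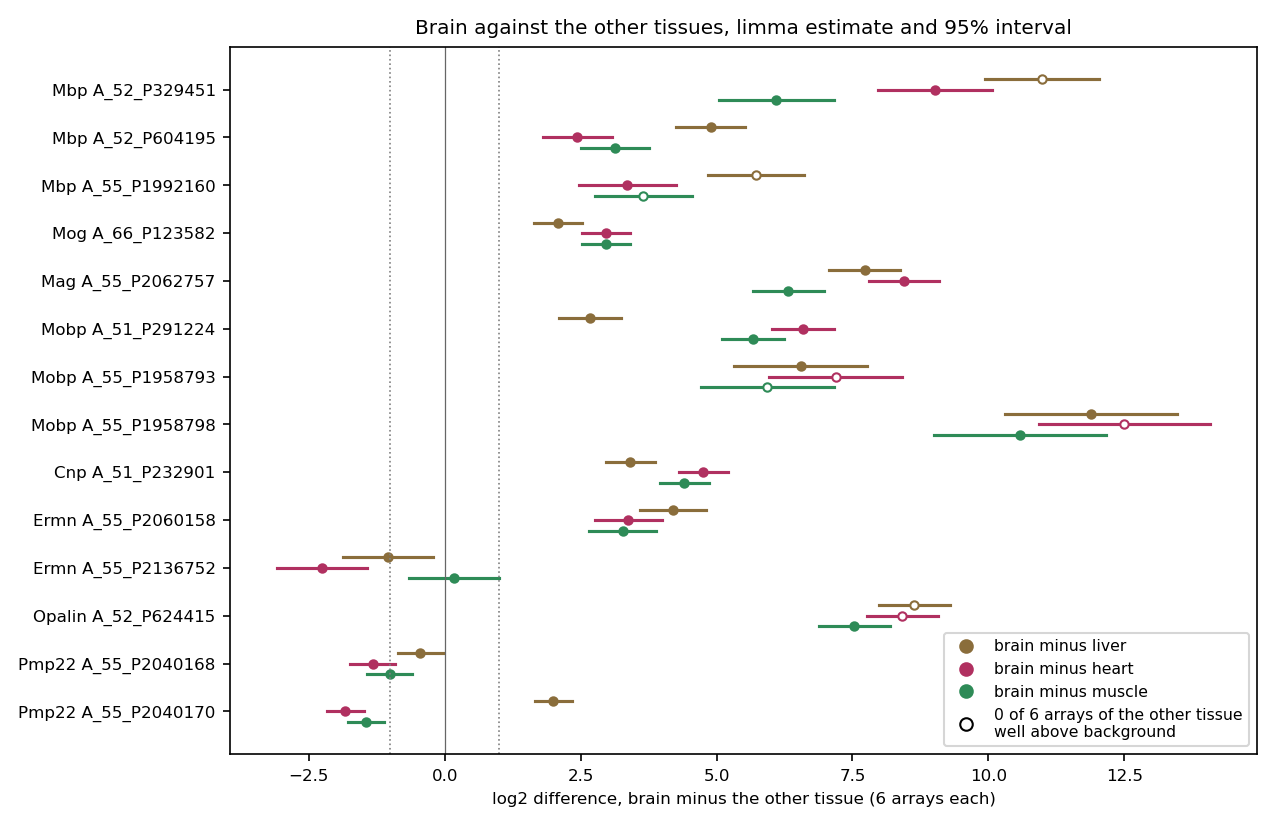
Points give the log2 difference of the brain minus liver, heart or muscle (6 arrays each) for the 14 probes, with 95% intervals, and open points mark tissues where no array was well above background, for which the difference is a measured value and not a bound. The central probes other than Ermn A_55_P2136752 lie to the right of 0, from 2.09 for Mog to 12.50 for Mobp A_55_P1958798, that Ermn probe lies at -1.05, -2.26 and 0.18 against liver, heart and muscle, and Pmp22 lies to the left of 0 against heart and muscle.

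Ermn encodes ermin, an actin-binding protein of mature oligodendrocytes, and its probes disagreed on the order of tissues. With A_55_P2060158 the brain levels were 3.11, 2.31 and 1.46 in WT and 2.97, 3.13 and 1.65 in Rap1 KI/KI mice, and the highest level in another tissue was -0.40. The brain was higher than liver, heart and muscle by 4.21, 3.38 and 3.27 (SE 0.29 each, limma adjusted p at most 5.55e-09). With A_55_P2136752 the brain levels were 3.77, 6.79 and 6.53 in WT and 5.32, 4.59 and 6.33 in Rap1 KI/KI mice, while the heart ran from 7.42 to 8.24 and the liver from 6.21 to 7.02. That probe put the brain below the heart by 2.26 (SE 0.39, limma adjusted p = 4.4e-05) and gave a brain minus muscle difference of 0.18 (95% interval -0.65 to 1.00). Its brain minus liver difference of -1.05 (limma adjusted p = 0.0208) changed sign under quantile normalization, to 0.23. The files do not show which transcript the second probe detects, and Ermn counts here rest on both.

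Pmp22 encodes the tetraspan protein of compact peripheral myelin, whose duplication causes the inherited neuropathy Charcot-Marie-Tooth disease type 1A, and it was the one gene of the 8 whose every probe was higher in heart and muscle than in the brain. Probe A_55_P2040170 was at 3.68, 4.10 and 3.88 in hearts of WT1, WT2 and WT3 and at 4.06, 3.85 and 4.25 in hearts of KI1, KI2 and KI3. The same mice had 3.12, 3.65 and 4.06 (WT) and 3.42, 3.82 and 3.46 (Rap1 KI/KI) in muscle. Brain levels were 1.97, 1.96 and 1.57 in WT and 2.54, 2.30 and 2.52 in Rap1 KI/KI mice, and liver levels ran from -0.17 to 0.45. Heart and muscle overlapped each other and lay above all brains, and all brains lay above all livers.

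The heart exceeded the brain by 1.83 and the liver by 3.83 log2 units with that probe (SE 0.16 each, limma adjusted p at most 5.66e-09), and muscle exceeded the brain by 1.45 and the liver by 3.45. Muscle and heart differed by 0.38 (95% interval of muscle minus heart -0.72 to -0.04), which missed the threshold after adjustment (limma adjusted p = 0.0644). The second probe, A_55_P2040168, also put the heart over the brain, by 1.32 (SE 0.20, limma adjusted p = 7.49e-06). It disagreed on the liver: there the brain was lower by 0.45 (SE 0.20, limma adjusted p = 0.045) where A_55_P2040170 had it higher by 2.00. Its brain minus muscle difference of -1.01 fell short of 2-fold under several settings, to -0.70 with the slide as a block (limma adjusted p = 0.0959).

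Among liver, heart and muscle the myelin probes had no common order. Of the 14, 5 were higher in heart than in liver (25.1% of all probes) and 2 lower (24.0%), 6 were higher in muscle than in liver (27.2%) and 2 lower (25.7%), and 3 were higher in muscle than in heart (12.5%) and 1 lower (12.8%). In the main fit the rises in both heart and muscle over the liver included Pmp22 A_55_P2040170 and all 3 Mbp probes. With Mbp A_55_P1992160 no muscle or liver array was above background, so its muscle rise lay between undetected signals. Without the muscle of KI3 the probes higher in muscle than in liver were 4, without Opalin and Mag, and those higher in muscle than in heart were 2, without Mobp A_55_P1958798. For Opalin and that Mobp probe the muscle of KI3 was the 1 muscle array above background. With the slide as a block (added after seeing the data) 3 probes were higher in muscle than in liver and 3 lower, and 1 was higher in muscle than in heart and 3 lower. Muscle minus liver was then -0.30 for Mbp A_55_P1992160 and 0.78 for Mbp A_52_P604195 (limma adjusted p = 0.726 and 0.334). Mbp A_52_P329451 (3.10) and Pmp22 A_55_P2040170 (3.47) stayed higher in muscle. Over the liver in the heart, Mbp A_52_P329451 lost its call (1.55, limma adjusted p = 0.114) and the other Mbp probes kept theirs.

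Other genes of the pathway were read from lists written with the members. Of 28 other genes of central myelin and mature oligodendrocytes, 25, 24 and 25 were at least 2-fold higher in the brain than in liver, heart and muscle. The shares of all probes were 28.2%, 21.4% and 22.5%. The median differences of the list were 4.23, 4.44 and 4.67. The medians for the 8 member genes, each by its brightest probe, were 3.04, 3.86 and 3.77. Mal, a lipid-raft proteolipid of myelin, was higher in the brain by 7.70, 2.74 and 4.65 (SE 0.30 each), and Plekhb1, a pleckstrin-domain protein, by 2.10, 5.39 and 1.10 (SE 0.33 each). Trf, the iron carrier transferrin that oligodendrocytes and hepatocytes both make, was the 1 gene of that list lower in the brain than in the liver, by 2.12 (SE 0.38).

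Of 9 transcription factors of the oligodendrocyte lineage, 7, 7 and 8 were at least 2-fold higher in the brain than in liver, heart and muscle (28.2%, 21.4% and 22.5% of all probes) and 0, 0 and 1 lower (35.2%, 27.5% and 29.5%). The factor lower than in muscle was Zfp488, by 1.07 (SE 0.21). Sox10, which oligodendrocytes and Schwann cells share, was higher by 3.38, 2.75 and 2.92 (SE 0.15 each), and Olig2, which sets the oligodendrocyte lineage, was above background on no liver or heart array. Of 7 precursor genes 6, 4 and 4 were higher in the brain and 1, 1 and 0 lower. Pdgfra, the receptor that marks oligodendrocyte precursors and many fibroblasts, was lower in the brain than in the heart by 0.86 (SE 0.17). Of 7 myelination signals and receptors 4, 4 and 3 were higher in the brain and 1, 2 and 1 lower. Nrg1, the axonal neuregulin that instructs Schwann cells, was higher than in liver and heart by 4.12 and 2.48 (SE 0.57 each) and was above background on 1 of 6 muscles.

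The list of 10 tested Schwann cell and peripheral myelin genes did not have the brain as its common peak. It held 4, 5 and 4 genes at least 2-fold higher in the brain than in liver, heart and muscle (28.2%, 21.4% and 22.5% of all probes). Lower in the brain were 2, 3 and 4 (35.2%, 27.5% and 29.5%). The median differences were 0.39, 0.94 and -0.58. Prx, the Schwann cell scaffold periaxin, was lower in the brain than in muscle by 4.84 (SE 0.35, limma adjusted p = 2.76e-10). Gjb1, the gap junction protein connexin 32 of Schwann cells and hepatocytes, was lower in the brain than in the liver by 5.79 and higher than in heart and muscle by 2.96 and 2.78 (SE 0.15 each).

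Within the brain the level of the central probes varied from mouse to mouse inside each genotype. Over the 11 central probes other than Ermn A_55_P2136752, the mean deviation from each probe's brain mean was 0.11, 0.03 and -0.27 in WT1, WT2 and WT3 and 0.01, 0.36 and -0.24 in KI1, KI2 and KI3. KI2 was at or above the mean with all 11 probes, while WT3 was below it with 9 and KI3 with 10. Each genotype thus held a mouse near the bottom. The 28 other central myelin genes were lowest in WT3 as well, at -0.38, and highest in KI2, at 0.24, but KI3 was at 0.00 for them.

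The SD over the 6 brains was between 0.18 (Cnp) and 0.46 (Mobp A_55_P1958798) for 12 of the 14 probes, against a median of 0.33 over all probes. The exceptions were the Ermn pair, at 0.75 for A_55_P2060158 and 1.20 for A_55_P2136752. The brains of WT2, WT3 and KI3, where A_55_P2136752 was highest, also had 11.8%, 9.17% and 10.7% of all probes at least 1 log2 unit above the median of the other brains, against 1.95% to 3.44% in WT1, KI1 and KI2. Of 7 microglia genes 6 were highest in the brain of KI3, with a median of 1.04 above the median of the other brains, beside its low central myelin probes. The share of all probes that were highest in that brain was not worked out. The part of these array differences in the myelin values was not tested.

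**Figure D3:**
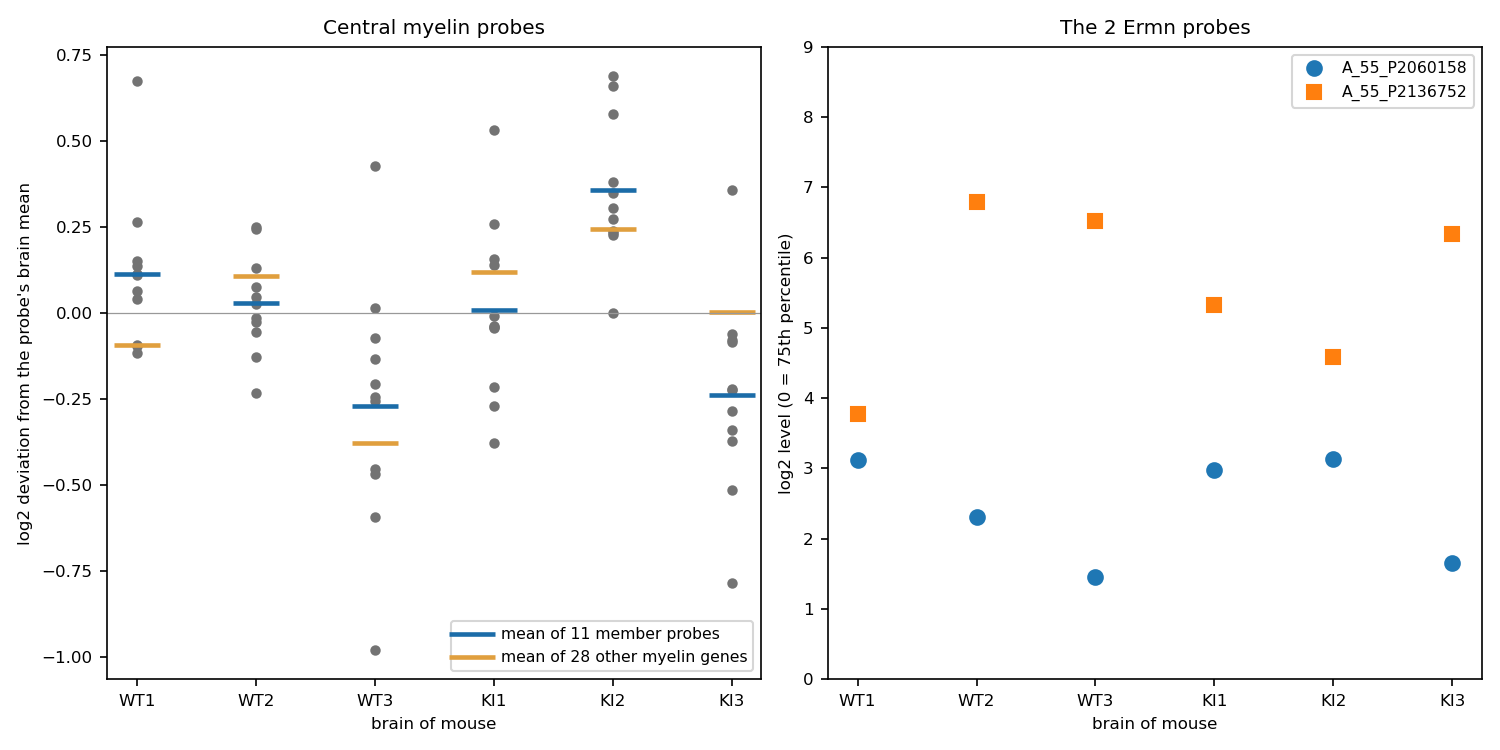
Left, the log2 deviation of each of the 11 central myelin probes from its brain mean, by mouse, with bars for their mean (blue) and for the mean of the 28 other central myelin genes (orange); right, the log2 levels of the 2 Ermn probes in the same brains. KI2 is high (mean 0.36) and WT3 and KI3 are low (-0.27 and -0.24), and Ermn A_55_P2136752 is high in WT2, WT3 and KI3, with 6.79, 6.53 and 6.33.

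No myelin probe passed the genotype test in any tissue. In each tissue 0.00% of all probes passed an adjusted p under 0.05 (limma, 35240, 37836, 34848 and 32382 probes tested in liver, brain, heart and muscle), and 9, 14, 11 and 10 of the myelin probes were above background often enough to be tested. At an unadjusted p under 0.05 the counts over all probes were 750, 992, 2617 and 802, or 2.13%, 2.62%, 7.51% and 2.48%, and those of the myelin probes were 0, 1, 0 and 1. Levels of the genotypes did not overlap for 0, 2, 0 and 0 myelin probes, against 5.84%, 7.73%, 14.7% and 6.44% of all probes. The median difference, Rap1 KI/KI minus WT, was 0.00, 0.09, 0.17 and 0.19 over the tested myelin probes and -0.01, -0.05, -0.02 and -0.07 over all probes. Without KI3 the heart and muscle medians of the myelin probes were 0.15 and 0.03. An exact permutation test of 3 against 3 mice cannot give a p below 0.1. In simulated data the genotype test recovered 2.99% of added changes of 1 log2 unit in brain and heart. It recovered 5.97% of them in muscle and 13.4% in the liver. For changes of 2 log2 units the share ran from 40.3% in the brain to 64.2% in the liver. The absence of calls therefore does not exclude changes of these sizes.

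Pmp22 A_55_P2040170 in the brain was the myelin probe with the lowest unadjusted p in any tissue. Its 3 Rap1 KI/KI levels, 2.54, 2.30 and 2.52, all lay above its 3 WT levels, 1.97, 1.96 and 1.57. The difference was 0.62 (SE 0.19, 95% interval 0.15 to 1.08, unadjusted p = 0.0179 and adjusted p = 1 by limma), and it was 0.57 between the 5 month old mice and 0.64 between the 2 month old mice. The 5 month old brains were on slide 1 and the 2 month old brains on slide 2, so age and slide cannot be told apart in the brain. The second Pmp22 probe overlapped between genotypes, with a difference of 0.20 (SE 0.24). In the same brains the summed level of 7 astrocyte genes, all 7 above background, ran from 6.70 to 7.07 in WT and from 7.28 to 7.43 in Rap1 KI/KI mice on the log2 scale, and 1 of the 7 had an unadjusted p under 0.05 by limma. The part of astrocytes in the Pmp22 difference was not tested. Mag was the other probe without overlap in the brain, with 4.56 to 4.72 in WT and 4.73 to 5.10 in Rap1 KI/KI mice, a difference of 0.27 (SE 0.18, limma adjusted p = 1) that was 0.25 and 0.28 within the ages.

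The remaining central probes differed between genotypes in the brain by -0.37 to 0.43, each with a 95% interval that included 0. For Cnp the interval was -0.36 to 0.57, for Mog -0.50 to 0.56, and for Mbp A_52_P329451 -0.61 to 0.76. Among the 28 other central myelin genes in the brain none passed the adjusted test, and 2 had an unadjusted p under 0.05 (2.62% of all probes did), both higher in Rap1 KI/KI mice: Klk6, a myelin-degrading protease of oligodendrocytes, by 1.20 (SE 0.32), and Enpp6, a choline phosphodiesterase of newly formed oligodendrocytes, by 0.69 (SE 0.23). The median of the 28 was 0.22. Klk6 and Enpp6 were named after their values were seen.

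**Figure D4:**
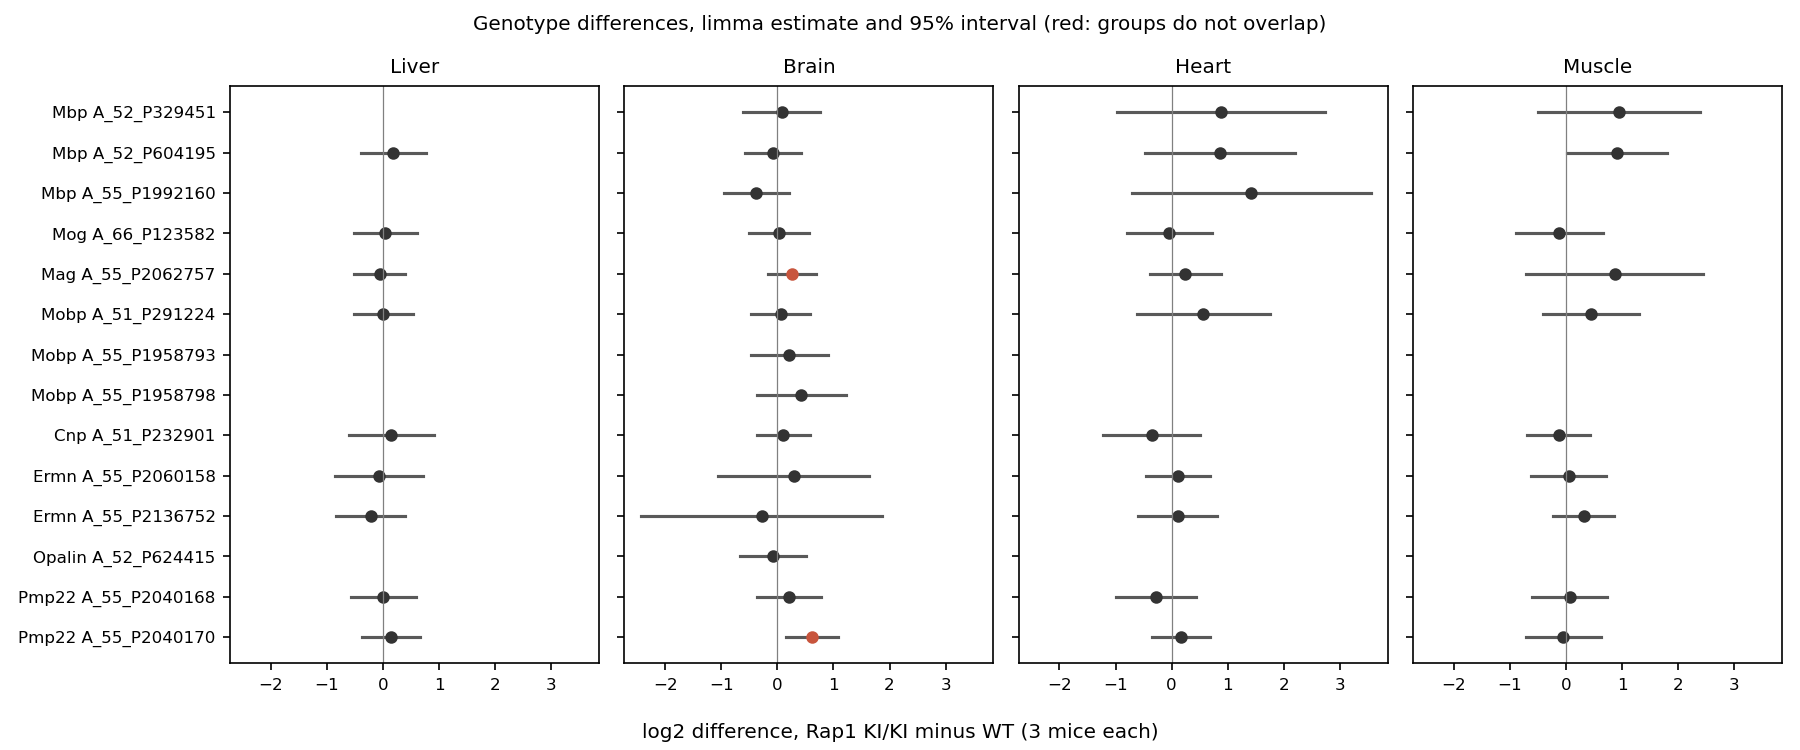
Each panel gives, for 1 tissue, the log2 difference of Rap1 KI/KI minus WT (3 mice each) of every tested myelin probe as estimated by limma, with its 95% interval, and red marks probes whose genotypes did not overlap. Both red probes are in the brain, Pmp22 A_55_P2040170 (0.62) and Mag (0.27), and the intervals are wide for Ermn A_55_P2136752 in the brain (-2.43 to 1.87) and for Mbp A_55_P1992160 in the heart (-0.71 to 3.55).

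In the liver the myelin differences lay between -0.22 and 0.18. In the heart they lay between -0.36 for Cnp and 1.42 for Mbp A_55_P1992160 (SE 0.90, limma adjusted p = 0.688). All 3 Mbp probes had higher means in the Rap1 KI/KI hearts, by 0.88, 0.86 and 1.42, and in each the heart of KI3 was the highest of the 6. Without that mouse the differences were 0.15, 0.31 and 0.93 (limma adjusted p = 1 each). For A_52_P604195 it was at 2.54 and the other 5 hearts were between -0.22 and 1.16. On that array Mag was also at its highest heart level, -3.12, while Opalin and Mobp A_55_P1958798 were not above background.

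Genes of several other lists were high on the same heart array, where 10.8% of all probes were at least 1 log2 unit above the median of the other hearts. Prx was at 0.67 in the heart of KI3 and between -2.26 and -1.12 in the other 5 hearts, and 6 of 11 genes of the Schwann cell list were the highest of the 6 hearts. The summed level of that list, on the log2 scale, ran from 0.83 to 1.57 among WT and from 1.30 to 2.34 among Rap1 KI/KI hearts. Of 7 adipocyte genes 6 were also highest in the heart of KI3, with a summed level of 9.39 there, which WT hearts did not reach (7.84 to 7.94) and which was the top of the Rap1 KI/KI range (8.14 to 9.39). Of 12 neuron genes 6 were highest there, with a median of 1.21 above the other hearts (0.55 for the Schwann cell list), and their summed level of 5.46 lay within the WT range of 4.64 to 5.71. Of the 28 other central myelin genes 12 were highest there, with a median of 0.40 above the other hearts. The share of all probes that were highest on that array was not worked out. These counts of highest genes therefore have no share to be read against. The summed astrocyte list ran from 1.46 to 2.18 in WT and from 2.34 to 2.97 in Rap1 KI/KI hearts. Of its 7 genes 5 were above background often enough to be tested in the heart. Their genotype differences ran from -0.22 for Slc1a2 to 1.89 for Slc1a3. A summed signal is carried by the brightest genes and gives no amount of astrocytes in the heart. Whether the Mbp values are tied to the genes of these lists was not tested.

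In muscle 1 myelin probe had an unadjusted p under 0.05, Mbp A_52_P604195. Its levels were 0.56, -0.57 and -0.41 in WT and 0.51, 1.33 and 0.47 in Rap1 KI/KI mice, and WT1 overlapped the Rap1 KI/KI range. The difference was 0.91 (SE 0.38, unadjusted p = 0.0477 and adjusted p = 0.939 by limma). It was 1.39 between the 2 month old mice and -0.06 between the 5 month old mice. Mbp A_52_P329451 and Mag had differences of 0.94 (SE 0.61) and 0.87 (SE 0.67), and KI3 was the highest of the 6 muscles for both. Without KI3 these differences were 0.24 and 0.02, that of Mobp A_51_P291224 was 0.03 instead of 0.45, and that of Mbp A_52_P604195 was 1.06.

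The muscle of KI3 stood above the other muscles for several central myelin probes. Mobp A_55_P1958798 was at 0.49 there and not above background in the other 5 muscles, where it was measured between -7.34 and -5.74. Opalin was at -4.95 and not above background in the other 5. Mag was at 0.60, against -2.24 to -1.78, and Mbp A_52_P329451 at -0.65, against -3.59 to -2.56. In all, 6 of the 14 myelin probes were at least 1 log2 unit above the median of the other muscles on that array, against 10.5% of all probes. Of the 6, Mobp A_55_P1958793 was above background in no muscle.

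Set against the mean brain level of the same probe, the muscle of KI3 held 5.37% for Mbp A_52_P329451, 5.45% for Mag, 4.09% for Mobp A_51_P291224, 4.20% for Mobp A_55_P1958798 and 2.13% for Opalin. The medians of the other 5 muscles were 1.16%, 1.00% and 1.76% for the first 3, and the last 2 were not above background there. Cnp, at 5.07% against 4.46%, Mog, at 15.7% against 13.9%, and Mbp A_52_P604195, at 12.7% against 13.0%, lay near the median of the other muscles.

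Genes of other brain cells were high on that array as well. Syn1, a synaptic vesicle protein, was at 15.3% of its brain level against a median of 0.111% in the other muscles, and 10 of 11 measured neuron genes were the highest of the 6 muscles. The share of all probes that were highest on that array was not worked out. The oligodendrocyte factor Olig1 was at 5.58% and the glial glutamate transporter Slc1a2 at 10.7%, and both were above background on 2 of the 6 muscles. The summed neuron list ran from 4.57 to 4.89 in WT muscle and from 4.50 to 6.30 in Rap1 KI/KI muscle on the log2 scale. Schwann cell genes did not stand apart: Prx was at 1.40, within the range of the other muscles, and 1 of 11 genes of that list was the highest of 6. The part of brain transcripts in the muscle genotype differences of Mag and Mbp was not tested. Without that array the brain exceeded muscle by 6.75 for Mag instead of 6.32. Against the other 5 muscles the brain was at least 1190-fold higher for Mobp A_55_P1958798 and at least 53.7-fold higher for Opalin.

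**Figure D5:**
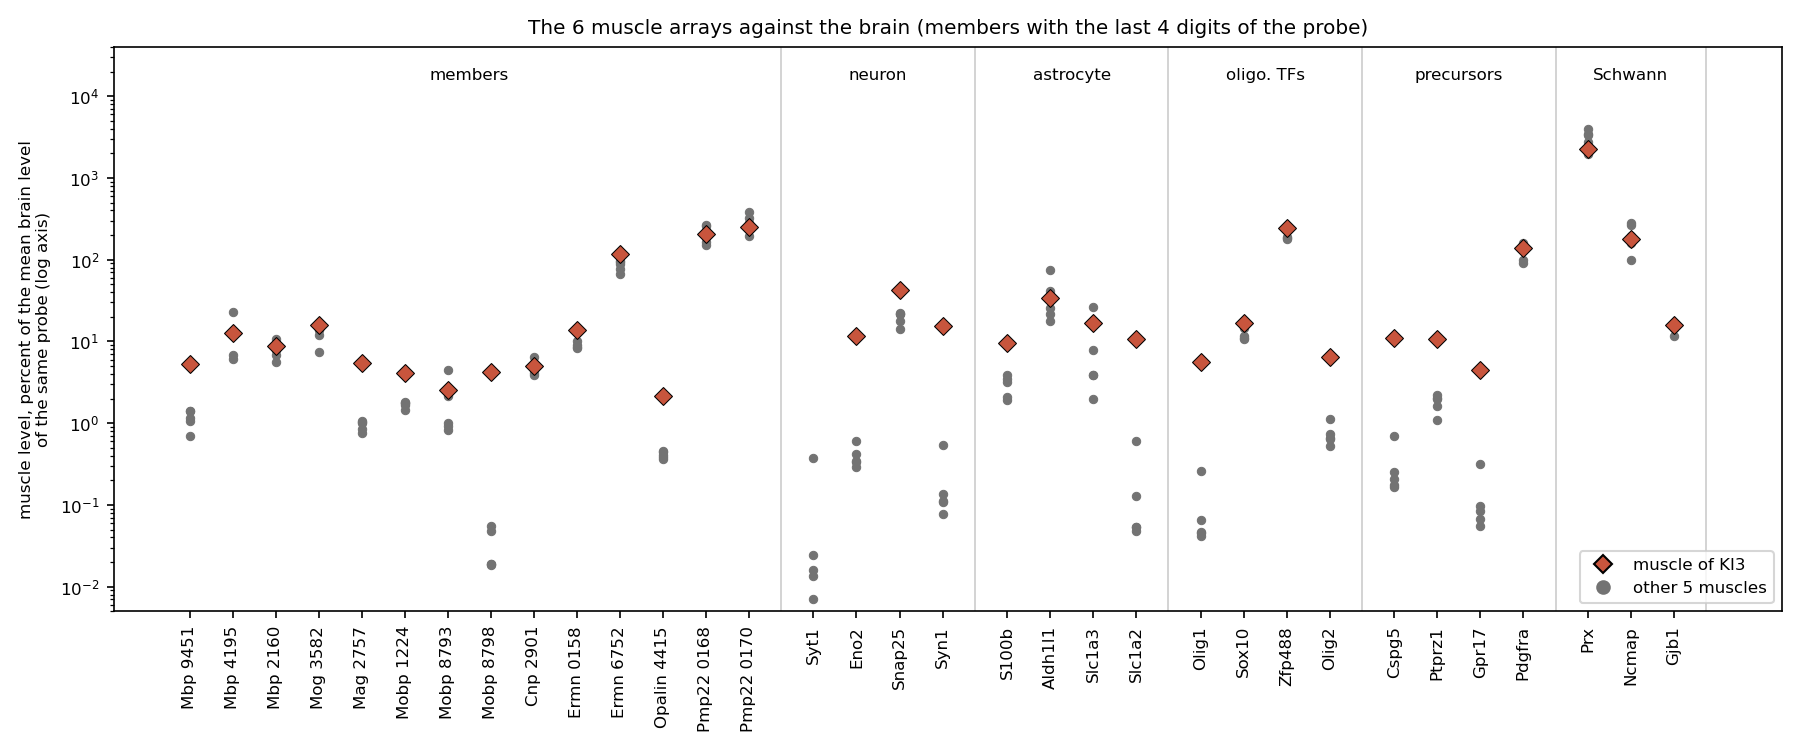
Levels in the 6 muscles are plotted as a percent of the mean brain level of the same probe, on a log axis, for the myelin probes and for marker genes of other cells, with the muscle of KI3 as a diamond and the other 5 muscles as circles. Mag (5.45%), Mobp A_55_P1958798 (4.20%), Opalin (2.13%), Syn1 (15.3%) and Olig1 (5.58%) of KI3 lie above the other muscles, whereas Mog, Cnp, Prx and Ncmap do not, and Gjb1 (16.1%) lies just above their highest value (15.6%); Syt1 has no diamond, since its spot was left out on that array, and spots not above background are plotted at their measured value.

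The genotype difference was not found to vary between tissues for any myelin gene. The interaction of genotype and tissue was called for 0.00% of 42463 probes (limma F test), with 1243 probes, or 2.93%, at an unadjusted p under 0.05 and none of the 14 myelin probes among them. The lowest myelin value was an unadjusted p of 0.078 by limma. Leaving out WT1 raised the count over all probes from 0 to 4, and leaving out WT3 raised it to 1.

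The profiles most like those of the myelin genes were sought over the 24 arrays as the root mean square log2 distance between profiles centred on their own means, among 21277 genes by 1 probe each. The nearest to Mag were Asic4 (0.47), Caly (0.55) and Rell2 (0.58), and the nearest to Opalin were Clvs2 (0.28), Cacng5 (0.40) and Gabra5 (0.43). For the brightest Mobp probe they were Cdk5r2 (0.52), Gpr12 (0.56) and Hapln4 (0.68). Those of the brightest Mbp probe, Cyria (0.46), Armcx2 (0.47) and 9530077C05Rik (0.47), were about as far away. For Cnp they were Flt3 (0.46), Pmfbp1 (0.48) and Shh (0.48), for Mog Usp22 (0.33), 1700016K19Rik (0.34) and Ckmt1 (0.35), and for the brightest Ermn probe Gab3 (0.27), Pinx1 (0.33) and Dcc (0.35). Pmp22 was nearest to Wnt5a (0.27), Timp3 (0.30) and Il17rd (0.31). None of the genes of the myelin lists was among these nearest 3. The 24 arrays share 6 mice and 4 tissues, so that these distances describe profiles over a small set of tissues and are not independent points.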

How the data were processed

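The labels name Agilent 1-colour (Cy3) expression arrays of total RNA from 24 samples, 6 per tissue. The deposited scanner files hold intensity as processed by Feature Extraction 12.0.3.1 (background subtracted, detrended, arrays not normalized to each other). A deposited value table holds a score per probe, the z-score of log10 processed signal among all spots of its array to within 0.005, and served as an alternative. Levels are log2 processed signal minus the log2 of the array's 75th percentile, with control spots and outlier flags left out. Probes were named by transcript accession through the RefSeq genes of GRCm38.p6: 28331 of 55681 probes have a name, and 27350 have none here. The genotype test was limma (version 3.58.1, R version 4.3.3, with statmod 1.5.0 and version 1.17.8 of data.table) within a tissue, on probes that 3 or more of its 6 arrays showed well above background. Tissues and the interaction came from 1 limma fit of 24 arrays with 8 groups, over probes that passed in at least 1 tissue. Tests are two-sided with Benjamini-Hochberg adjustment over all tested probes. The genotype test in each tissue and the brain against liver contrast were tried on simulated data, and the other steps were not.

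Where a gene has several probes, list counts use the one with the highest mean. Of each marker list, the text may name the 4 genes highest in the WT brain (Schwann cell list: WT muscle), and per myelin gene the 3 nearest profiles. Some listed genes are not reported here. The myelin genes and all lists were chosen with earlier results of these data known. The same 6 mice gave all tissues, so arrays with the same number come from 1 animal: over 36 pairs of arrays of a mouse, correlations of deviations from the group means ran from -0.219 to 0.262 (median 0.0474, 9 above 0.1). The p-values of the genotype tests measure the spread between 3 mice per genotype. Those of the tissue contrasts and the interaction use 1 spread pooled over the 8 groups. That fit takes the 24 arrays of the same 6 mice as independent. No member spot was saturated. The precision is limited by the number of arrays.

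The alternatives were quantile normalization, normexp (offset 50, on median foreground and background signals because the files hold no mean signal), the deposited scores, other filters, mean over probes, age, slide or mouse as a block, WT arrays only, and each mouse left out. Added after seeing the data were the slide as a block for tissue pairs and fits without the KI3 muscle or heart array.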

Additional observations from a re-analysis of the deposited data

Results flagged for a closer look

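Each myelin probe was examined in each tissue for an array that lies apart from the other 5 by more of the whole range than Dixon's 95% critical value for 6 arrays allows. The arrays of both genotypes were pooled for this, since 3 arrays are too few. Of 48 groups of a probe and a tissue with at least 1 array above background, 7 held such an array. The critical value alone lets about 1 in 20 independent groups through. Several of the 7 are probes of the same array, so the count is not a test against chance. Opalin and Mobp A_55_P1958798 in muscle were examined only because the muscle of KI3 was above background.

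Of the 7, 5 concern the muscle of KI3. Mbp A_52_P329451 was at -0.65 there, with the other 5 muscles between -3.59 and -2.56. Mag was at 0.596, with the others between -2.24 and -1.78. Mobp A_51_P291224 was at -2.25, with the others between -3.72 and -3.41, and Mobp A_55_P1958798 was at 0.489, with the others not above background and measured between -7.34 and -5.74. Opalin was at -4.95, the single muscle array above background, with the others measured between -7.50 and -7.19.

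The other 2 lie below their group. Mog was at -2.33 in the muscle of KI2, with the others between -1.64 and -1.24. Mobp A_51_P291224 was at -5.71 in the heart of WT2, not above background, with the others between -4.04 and -3.75.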

How the results depend on the processing

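The genotype counts stayed at 0 probes in each tissue under every alternative. The replicate block, with the mouse as block in the fit of all arrays, gave a consensus correlation of 0.0258 between arrays of a mouse and changed no call of a myelin probe, and the count of probes called for the genotype in the brain stayed at 0. Of 784 recomputed myelin tissue differences 757 kept their direction and their side of the threshold, 14 lost the call, 8 gained it and 5 reversed, and of 135 genotype differences 133 kept their direction. Normexp moved the count over all probes to 13331 for heart against liver and to 6287 for muscle against heart, and gave 3 myelin probes higher in heart than in liver. Leaving out each mouse gave 0 to 4 probes for the interaction. The myelin probes higher in muscle than in heart rose to 5 without MUT replicate 1 and without MUT replicate 2. They fell to 2 without the muscle array of KI3 and without the heart array of KI3. With WT arrays only, 3 myelin probes were higher in heart and 3 in muscle than in liver. With the slide as a block these counts were 3 for muscle against liver and 1 for muscle against heart. With the mean over the probes of a gene (8 genes), 7, 6 and 7 were higher in the brain than in liver, heart and muscle, and 3 in heart than in liver. The cause was not tested, except that the last setting counts genes and that WT arrays alone are fewer. Ermn A_55_P2136752 reversed between brain and liver to 0.227 under quantile normalization. It reversed between brain and muscle to -0.1552 without WT replicate 2 (0.6482 without WT replicate 1, the other end of the range over mice left out). The mean over probes puts the average of all probes of a gene in place of the named probe. The reversals counted under it are therefore set against another quantity. For Ermn that average was 1.579 between brain and liver and 0.5603 between brain and heart. For Mobp the average differed between genotypes in the heart by -0.04346, and for Mbp it differed between muscle and heart by 0.643. Mobp A_51_P291224 itself reversed between genotypes in the heart to -0.03035 without WT replicate 2 (up to 0.9142 with another mouse left out). Signal over background limits the dim tissues, where Opalin, a pair of Mobp probes and a pair of Mbp probes give only bounds in some contrasts.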
